A study of Mus musculus with 6 samples.

Results

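The 10 genes described here encode transcription factors of the hair matrix and precortex, the dividing cells at the base of the follicle and the cells just above them that become the shaft. They were chosen by symbol (Hoxc13, Foxn1, Foxq1, Msx1, Msx2, Lef1, Gata3, Cux1, Elf5 and Sox21). All 10 had a single probe set each, as did every named gene here, out of 16331 probe sets tested and 15644 with a gene name. The mutant group was 3 skin samples labelled Hoxc13 knockout, allele Hoxc13tm1Mrc, and the reference was 3 wild type skin samples. All 6 were labelled C57BL/6 and male, with 5 dpn in the titles. Whether the mutants carried 1 or both targeted copies was not given in the sources used here. Total RNA of whole dissected skin was hybridised to Affymetrix arrays, and the values below are log2 RMA values, so a difference of 1 is a doubling. In bulk skin, fewer cells of a type and less RNA per cell cannot be told apart.

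In the growing follicle, matrix cells divide around the dermal papilla and then move up into the concentric layers of the shaft and the inner root sheath. BMP signals from matrix and precortex and Wnt signals acting through beta-catenin and Lef1 start shaft differentiation, which ends in the hair keratins. Hoxc13 is a homeobox factor of the follicle and nail, and mice without it lack visible hair. Foxn1 is the forkhead factor lost in nude mice, and Foxq1 is the one lost in satin mice, whose shafts have an abnormal medulla.

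Of the 10 factors, Foxn1, Elf5 and Sox21 were called lower in mutant skin and 0 were called higher by limma at an adjusted p under 0.05. In the same fit 1.60% of all probe sets were called lower and 0.478% higher. At an unadjusted p under 0.05, 5 of the 10 were lower and 0 higher, where 5.94% of all probe sets were lower and 8.44% higher. The same shares are the background for all list counts below that use all 6 arrays. The median difference over the 10 was -0.52, against 0.0247 over all probe sets. The 10 differed in how the single arrays read, and the value on every array is given for each.

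The promoters of the called factors are shown as description. These factors were picked because they were called lower, so their shared direction is no further result. The sequences are from RefSeq (GRCm38.p6), 250 bases before to 50 after each annotated start, and 8 of the 10 factors had an entry. They were searched on both strands for TTTAC and TTTAT, short cores that posterior Hox proteins can bind. Matches are in capitals, and Elf5 has a pair of annotated starts.
Foxn1, chr11:78386559-78386858, minus strand: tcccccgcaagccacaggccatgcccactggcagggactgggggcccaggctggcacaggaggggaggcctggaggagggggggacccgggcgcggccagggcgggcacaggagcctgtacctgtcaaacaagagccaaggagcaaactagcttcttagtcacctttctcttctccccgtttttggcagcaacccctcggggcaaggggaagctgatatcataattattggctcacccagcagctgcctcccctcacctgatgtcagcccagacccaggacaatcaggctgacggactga
Sox21, chr14:118236981-118237280, minus strand: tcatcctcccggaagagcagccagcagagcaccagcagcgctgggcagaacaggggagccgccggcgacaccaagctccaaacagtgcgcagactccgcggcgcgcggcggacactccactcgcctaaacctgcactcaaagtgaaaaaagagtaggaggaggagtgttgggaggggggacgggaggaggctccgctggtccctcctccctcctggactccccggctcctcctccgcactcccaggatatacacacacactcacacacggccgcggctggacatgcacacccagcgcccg
Elf5, first start, chr2:103411848-103412147, plus strand: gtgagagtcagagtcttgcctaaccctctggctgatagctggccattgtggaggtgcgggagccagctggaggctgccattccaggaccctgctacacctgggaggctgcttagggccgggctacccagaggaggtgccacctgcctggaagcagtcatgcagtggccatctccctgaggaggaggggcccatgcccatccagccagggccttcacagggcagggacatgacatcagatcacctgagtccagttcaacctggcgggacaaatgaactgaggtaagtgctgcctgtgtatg
Elf5, second start, chr2:103423818-103424117, plus strand: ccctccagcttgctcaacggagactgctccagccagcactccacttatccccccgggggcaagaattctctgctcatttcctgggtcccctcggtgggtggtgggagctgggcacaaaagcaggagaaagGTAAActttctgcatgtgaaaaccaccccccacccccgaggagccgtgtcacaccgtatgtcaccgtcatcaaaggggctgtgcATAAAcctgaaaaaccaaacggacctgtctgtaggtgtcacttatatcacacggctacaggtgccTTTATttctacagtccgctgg

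The Foxn1, Sox21 and first Elf5 windows held neither core. The second Elf5 window held 1 match to TTTAC and 2 to TTTAT, the first at -120 and the others at -36 and 30 bases from the start. Over the 12 promoter windows of the members, 2 held TTTAC and 3 held TTTAT. Over all 32851 RefSeq promoter windows the shares were 31.5% and 40.0%. The other windows with a match were those of Msx2, Cux1 and the fourth Lef1 start. These are matches of letters in a short window and say nothing of binding.

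The arrays differed in one way that touches most of the members. Correlations across probe sets were at least 0.996 among wild type arrays and 0.997 between mutant replicates 1 and 2, but 0.989 and 0.990 between mutant replicate 3 and those arrays. Results are therefore given with and without that array. It was singled out from these same values, and leaving out a discordant array lowers the spread. The adjusted p without it are thus description and not an independent test. Leaving it out gave 2316 called probe sets, where leaving out any other single array gave 151 to 176. The 10 measured hair shaft keratins, the proteins that fill the shaft, did not separate it in the same direction. Krt35, a keratin of the precortex, read 6.46, 6.13 and 6.08 in mutant replicates 1, 2 and 3, against 13.11, 13.05 and 13.24 in wild type skin. All 10 were called lower, with a median difference of -6.28, and mutant replicate 3 was the lowest mutant array for 7 of them. The share of all probe sets lowest on that array was not computed. Krt35, Krt82, Krt33b and Krt31 had the smallest p, with differences of -6.91, -5.30, -6.13 and -6.43. The defining markers of the labelled tissue were present, since the 9 keratinocyte genes (Krt5, Krt14, Krt1 and others) read between 9.06 and 14.13 on all arrays. Of these 9, 1 was called lower and 0 higher. Ivl (involucrin, of the cornified envelope) read 9.29, 9.21 and 9.06 in mutant skin, against 9.96, 9.83 and 9.998 in wild type skin, a difference of -0.74 (SE 0.09, limma adjusted p = 0.00559) that was called without any 1 of the 6 arrays. By contrast 11 genes of sperm, rod cells and islets read between 3.52 and 6.95, all values above 5.43 being from Ins2. Limma called 0 of the 11 (0 lower and 0 higher at an unadjusted p under 0.05), the smallest p being that of Odf1 (-0.14, limma adjusted p = 0.406).

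**Figure D1:**
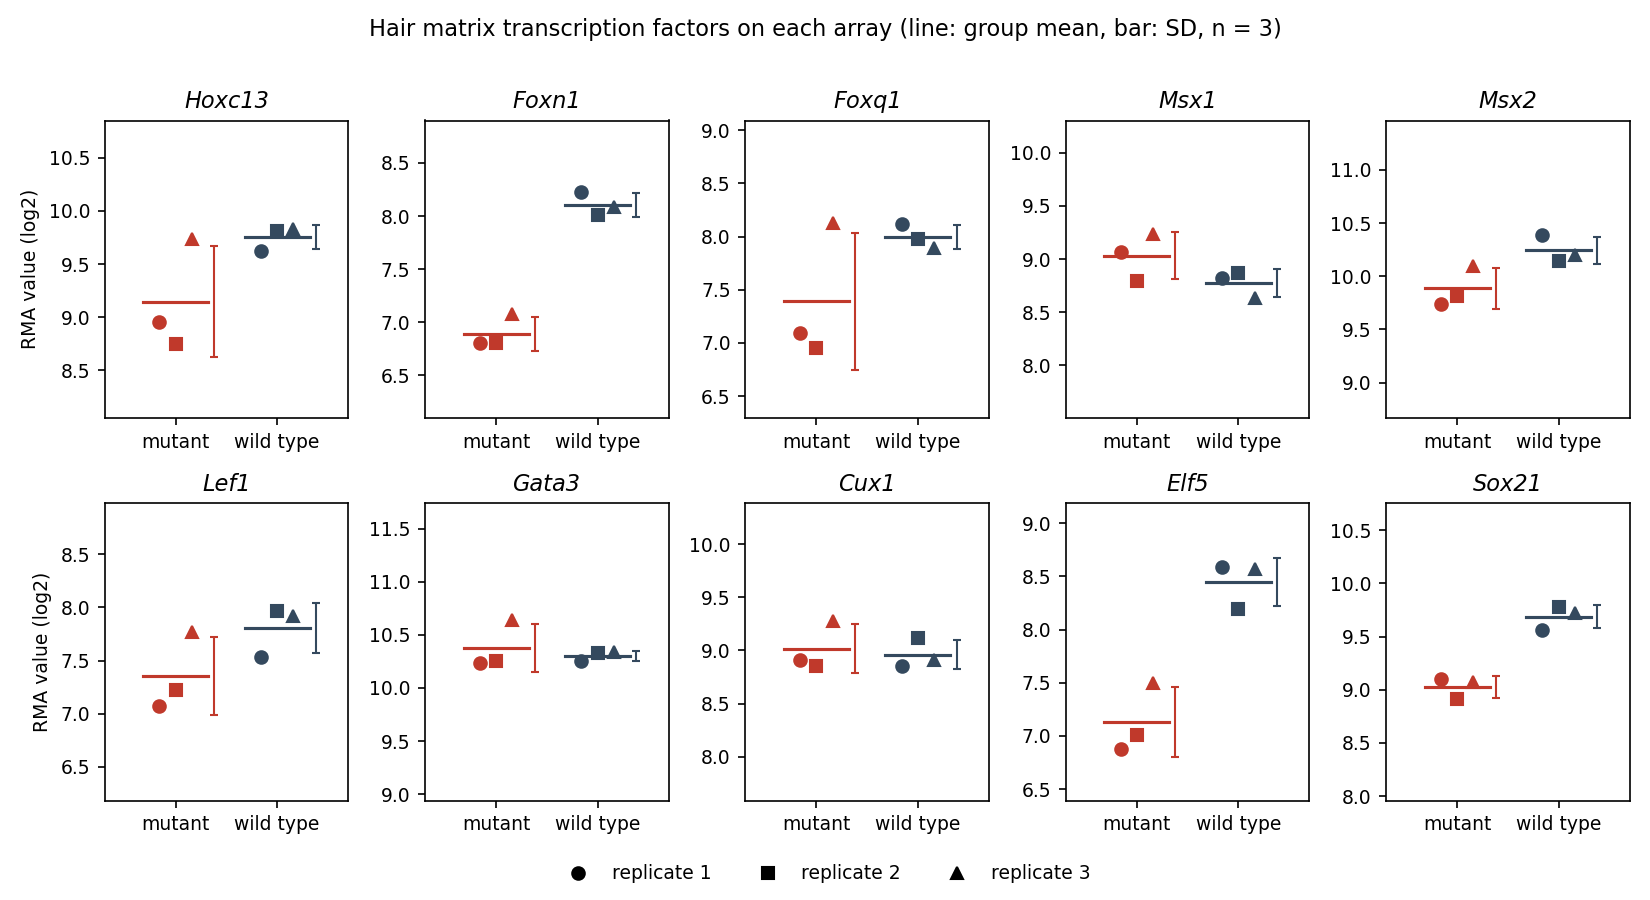
RMA values (log2, vertical axis, each panel spanning the same height) of the 10 factors in mutant (left, red) and wild type (right, blue) skin. Symbols are replicates 1, 2 and 3, lines are means and bars are SD (n = 3). The mutant triangle, replicate 3, is the highest mutant value for 9 of the 10 factors and lies among the wild type points for Hoxc13 and Lef1.

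Hoxc13, the targeted gene, read 8.95, 8.75 and 9.74 in mutant replicates 1, 2 and 3, against 9.63, 9.81 and 9.83 in wild type replicates 1, 2 and 3. Mutant replicates 1 and 2 lay below every wild type array, and mutant replicate 3 lay inside the wild type range. The groups averaged 9.15 ± 0.52 in mutant and 9.75 ± 0.11 in wild type skin (SD, n = 3 each). The difference of -0.61 (SE 0.23, 95% interval -1.15 to -0.06) did not pass after adjustment over all probe sets (limma adjusted p = 0.293). Without mutant replicate 3 it was -0.90 (SE 0.09, limma adjusted p = 0.00114). The labels do not say where the probes lie relative to the targeted sequence, and the Hoxc13 level therefore neither bears out nor contradicts them. The library labelled mutant replicate 3 had hair keratin values as low as the other mutant libraries.

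The forkhead factors differed in how that array read. Foxn1, which drives matrix cells and their descendants into shaft differentiation, read 6.80, 6.80 and 7.07 in mutant skin, against 8.22, 8.01 and 8.08 in wild type skin. All 3 mutant arrays lay below all 3 wild type arrays. The mean was 6.89 ± 0.16 in mutant and 8.10 ± 0.11 in wild type skin (SD, n = 3 each). The difference of -1.21 (SE 0.10, 95% interval -1.45 to -0.97) passed (limma adjusted p = 8.78e-04), a value 2.32-fold lower. It was called without any 1 of the 6 arrays, with differences from -1.30 to -1.15. Mutant replicate 3 was above the other mutant arrays by 0.27 for Foxn1.

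Foxq1 read 7.09, 6.95 and 8.13 in mutant skin, against 8.11, 7.98 and 7.89 in wild type skin. Mutant replicates 1 and 2 were below every wild type value and mutant replicate 3 was above every one. The difference of -0.60 (SE 0.28, 95% interval -1.26 to 0.06) did not pass (limma adjusted p = 0.388). It was -0.97 (SE 0.09, limma adjusted p = 6.05e-04) without mutant replicate 3 and -0.38 (limma adjusted p = 0.686) without mutant replicate 2, the ends of its range when 1 array was left out. The gap of mutant replicate 3 over the mean of mutant replicates 1 and 2 was 1.11, larger than for any of the other 9 members.

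The Msx genes encode homeobox factors that respond to BMP, and in mice Msx2 is needed to keep the shaft growing and to sustain Foxn1 in the matrix. Msx2 read 9.74, 9.81 and 10.10 in mutant skin, against 10.39, 10.15 and 10.20 in wild type skin. The groups did not overlap, although the highest mutant and lowest wild type values were 10.10 and 10.15. The difference of -0.36 (SE 0.11, 95% interval -0.63 to -0.09) did not pass over all probe sets (limma adjusted p = 0.208), and without mutant replicate 3 it was -0.47 (SE 0.09, limma adjusted p = 0.0145).

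Msx1, its paralog, went the other way in value. It read 9.06, 8.79 and 9.24 in mutant skin, against 8.82, 8.87 and 8.63 in wild type skin, and the groups overlapped. The difference of 0.26 (SE 0.12, 95% interval -0.03 to 0.55) did not pass with all arrays (limma adjusted p = 0.401) or without mutant replicate 3 (0.15, limma adjusted p = 0.381). Whether the Msx1 and Msx2 differences themselves differ was not tested.

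Lef1, the HMG box partner of beta-catenin that binds hair keratin promoters, read 7.08, 7.23 and 7.77 in mutant skin, against 7.53, 7.96 and 7.92 in wild type skin. Mutant replicates 1 and 2 lay below the wild type arrays, and mutant replicate 3 among them. The difference was -0.45 (SE 0.19, 95% interval -0.90 to 0.00, limma adjusted p = 0.35), and -0.66 (SE 0.13, limma adjusted p = 0.0177) without mutant replicate 3.

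Sox21, an HMG box factor whose loss in mice gives cyclic hair loss with defective shaft cuticle, read 9.10, 8.91 and 9.07 in mutant skin, against 9.57, 9.78 and 9.72 in wild type skin. It was the member in which mutant replicate 3 lay closest to the other mutant arrays, 0.0645 above their mean and between them. The groups did not overlap and averaged 9.03 ± 0.10 in mutant and 9.69 ± 0.11 in wild type skin (SD, n = 3 each). The difference of -0.66 (SE 0.09, 95% interval -0.87 to -0.46) passed (limma adjusted p = 0.0103). The call was lost without wild type replicate 2 (-0.62, limma adjusted p = 0.0607) or wild type replicate 3 (-0.65, limma adjusted p = 0.0691).

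Elf5, an ETS factor of differentiating epithelia, had the lowest difference of the 10. It read 6.88, 7.01 and 7.50 in mutant skin, against 8.59, 8.19 and 8.57 in wild type skin, and the groups did not overlap. Means were 7.13 ± 0.33 in mutant and 8.45 ± 0.23 in wild type skin (SD, n = 3 each). The difference of -1.32 (SE 0.18, 95% interval -1.74 to -0.90) passed (limma adjusted p = 0.0111), a value 2.50-fold lower. The call was lost without wild type replicate 1 (limma adjusted p = 0.0721), wild type replicate 3 (limma adjusted p = 0.0695) or mutant replicate 2 (limma adjusted p = 0.0605).

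Gata3 and Cux1 are both known from the inner root sheath, the layer that moulds the shaft, and Gata3 is needed in mice to form it. Gata3 read 10.24, 10.25 and 10.64 in mutant skin, against 10.25, 10.33 and 10.34 in wild type skin. Mutant replicates 1 and 2 sat at the lower edge of the wild type values and mutant replicate 3 above all of them. The difference was 0.07 (95% interval -0.20 to 0.34, limma adjusted p = 0.829), and -0.06 without mutant replicate 3.

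Cux1, a cut-homeobox factor, read 8.91, 8.86 and 9.28 in mutant skin, against 8.85, 9.11 and 8.91 in wild type skin. The groups overlapped, with mutant replicate 3 the highest of all 6. The difference was 0.06 (95% interval -0.24 to 0.36, limma adjusted p = 0.886), and -0.07 without mutant replicate 3. The sign for Gata3 and Cux1 thus depended on that array.

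**Figure D2:**
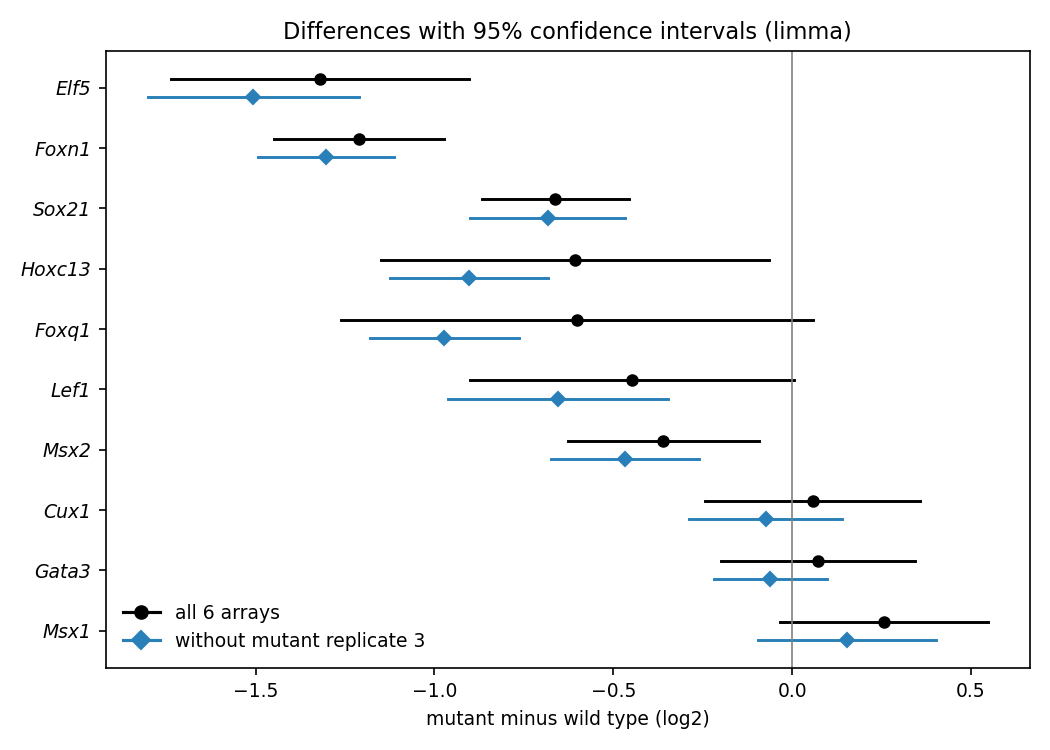
Mutant minus wild type differences (log2, horizontal axis) of the 10 factors with 95% confidence intervals from limma, from all 6 arrays (black circles) and without mutant replicate 3 (blue diamonds). Elf5, Foxn1 and Sox21 lie well left of 0 in both, while the intervals of Hoxc13, Foxq1 and Lef1 shorten and their differences move left without that array.

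Across the 10 factors, mutant replicates 1 and 2 were both below the wild type range for 7, where 20.5% of all probe sets had that pattern. For 4 of these 7 (Foxn1, Elf5, Sox21 and Msx2) mutant replicate 3 was below the range too, so that the groups did not overlap. Over all probe sets, 7.82% were lower without overlap. For the other 3 (Hoxc13, Foxq1 and Lef1) mutant replicate 3 was within or above the range, as for 12.7% of all probe sets. Mutant replicate 3 was above both other mutant arrays for 9 members, against 44.7% of all probe sets. The members were chosen with earlier results of these data known, so setting them beside these shares is description and not a test. Without mutant replicate 3, 7 members were called lower and 0 higher, where 6.23% of all probe sets were called lower and 7.95% higher. That fit has only 2 mutant arrays, and they correlate closely with each other.

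The closest relatives of the 10 factors in their DNA-binding families were seldom called, as were all probe sets (1.60% lower and 0.478% higher). Of 25 measured, 1 was called lower and 0 higher, with a median difference of -0.01. At an unadjusted p under 0.05, 1 was lower and 3 higher, against 5.94% and 8.44% of all probe sets. Some, such as Hoxb13 (3.995 to 4.21) and Cux2 (4.306 to 4.542), named after their values were seen, read as low as the sperm, rod cell and islet genes. Differences at that level are compressed. The gene called was Ehf, an epithelial ETS factor of the same subfamily as Elf5. Ehf read 5.68, 5.69 and 6.13 in mutant skin, against 7.10, 7.19 and 7.39 in wild type skin. The difference of -1.39 (SE 0.14, limma adjusted p = 0.00225) was close in size to that of Elf5, and it was called without any 1 of the 6 arrays (-1.54 to -1.31). In the fit without mutant replicate 3, 2 relatives were called lower and 2 higher, where 6.23% of all probe sets were lower and 7.95% higher. Elf3, the other factor of this subfamily, read 6.38, 6.33 and 6.83 in mutant and 6.64, 6.62 and 6.65 in wild type skin. It is named after its values were seen, as is Sox2, a dermal papilla factor of the Sox family. Sox2 read 6.41, 5.99 and 4.82 in mutant skin, against 5.13, 5.01 and 5.26 in wild type skin. Mutant replicates 1 and 2 were above, and mutant replicate 3 below, every wild type array. The wild type arrays and mutant replicate 3 read at the level of the sperm, rod cell and islet genes, so their order is among low values.

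Ehf is also the neighbour of Elf5 on chromosome 2. In the RefSeq gene order (GRCm38.p6, used here for order and distance) no other protein-coding gene lay between them. On its other side Elf5 is followed by Cat, the catalase gene, which read 11.50, 11.42 and 11.15 in mutant and 11.34, 11.30 and 11.30 in wild type skin. Taking the nearest measured protein-coding gene on each side of every member gave 20 genes, of which Ehf was the 1 called, where 2.08% of all probe sets were called in either direction. In the fit without mutant replicate 3, 4 of the 20 were called, against 14.2% of all probe sets. These were Ehf, lower, and Celf2, Kin and Gpr180, all higher (0.46, 0.35 and 0.30). Celf2 and Kin were the nearest measured genes on either side of Gata3, with Celf2 2460740 bases away and 2 other protein-coding genes before Kin, and Gpr180 was the next protein-coding gene to Sox21. The genes beside Foxn1, Unc119 (-0.17, limma adjusted p = 0.45) and Slc13a2 (-0.03, limma adjusted p = 0.925), were not called.

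Other transcription factors of follicle and epidermis went both ways. Of 31 measured, 0 were called lower and 1 was called higher, with a median difference of 0.09. At an unadjusted p under 0.05, 2 were lower and 6 higher, where 5.94% of all probe sets were lower and 8.44% higher. The groups did not overlap for 1 lower and 5 higher, against 7.82% and 12.5% of all probe sets. The gene called was Dlx1, a distal-less homeobox factor, which read 8.21, 8.05 and 7.75 in mutant skin, against 6.75, 6.93 and 7.18 in wild type skin, a difference of 1.05 (SE 0.15, limma adjusted p = 0.013). Its call held in only 2 of the 6 fits that left out 1 array, those without wild type replicate 3 and without mutant replicate 3 (0.95 to 1.18 over the 6, highest adjusted p = 0.0727). Of the 31, 4 were called lower and 4 higher in the fit without mutant replicate 3, against 6.23% and 7.95% of all probe sets. Sp6, a zinc finger factor needed in mice for hair and teeth, is named after its values were seen. It read 8.08, 8.23 and 8.88 in mutant skin, against 9.16, 9.24 and 9.29 in wild type skin. Its groups did not overlap, but the difference of -0.83 (SE 0.19) did not pass with all arrays (limma adjusted p = 0.0915) and was -1.08 (limma adjusted p = 1.82e-04) without mutant replicate 3.

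BMP and Wnt signalling genes were seldom called, as were all probe sets (1.60% lower and 0.478% higher). At an unadjusted p under 0.05 the shares of all probe sets were 5.94% lower and 8.44% higher. Among 18 BMP ligands, receptors and response genes, Bmp2, a ligand made in matrix and precortex, was the 1 called lower and 0 were called higher. At an unadjusted p under 0.05, 2 were lower and 3 higher. Bmp2 read 8.72, 8.41 and 8.40 in mutant skin, against 9.75, 9.17 and 9.24 in wild type skin, a difference of -0.88 (SE 0.17, limma adjusted p = 0.0461). The call was lost when any single array but mutant replicate 3 was left out (-0.98 to -0.69, highest adjusted p = 0.175). The median of the list was -0.07, and without mutant replicate 3, 3 were called lower and 1 higher. Among 17 Wnt feedback targets and partners of Lef1, limma called 0, with 3 lower and 3 higher at an unadjusted p under 0.05. Their median was 0.04, and the smallest p was that of Notum, a secreted Wnt inhibitor (-0.46, limma adjusted p = 0.103). Without mutant replicate 3, 3 were called lower and 3 higher. That fit, for both lists, called 6.23% of all probe sets lower and 7.95% higher.

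Of 7 measured inner root sheath genes 2 were called lower and 0 higher, with a median of -0.25. Leaving out 1 array gave medians from -0.34 to -0.12, the one nearest 0 coming without mutant replicate 1. Krt26 read 10.80, 10.62 and 11.10 in mutant skin, against 12.66, 12.72 and 12.83 in wild type skin, a difference of -1.90 (SE 0.12, limma adjusted p = 1.72e-04). Krt72 differed by -2.20 (SE 0.30, limma adjusted p = 0.0106), a call that held in 2 of the 6 fits with 1 array left out, those without mutant replicate 1 and without mutant replicate 3 (highest adjusted p = 0.0671). Without mutant replicate 3, 4 of the 7 were called lower and 0 higher, where 6.23% of all probe sets were lower and 7.95% higher. All 7 were highest in mutant replicate 3 among the mutant arrays, as were 44.7% of all probe sets. The median gap over the mean of the others was 0.37, where the median over the 10 factors was 0.396. Of 16 cell cycle genes limma called 0 (0 lower and 1 higher at an unadjusted p under 0.05), with a median of 0.06 (-0.018 to 0.16 when 1 array was left out, the ends coming without mutant replicates 2 and 3), and 0 lower and 3 higher without mutant replicate 3. The smallest p was that of Mcm7, a subunit of the replicative helicase (0.34, limma adjusted p = 0.134). In mutant replicate 3 the cell cycle genes were the lowest of the mutant arrays for 14 of the 16, with a median of -0.25 against the mean of the others. No share of all probe sets lowest there was computed.

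**Figure D3:**
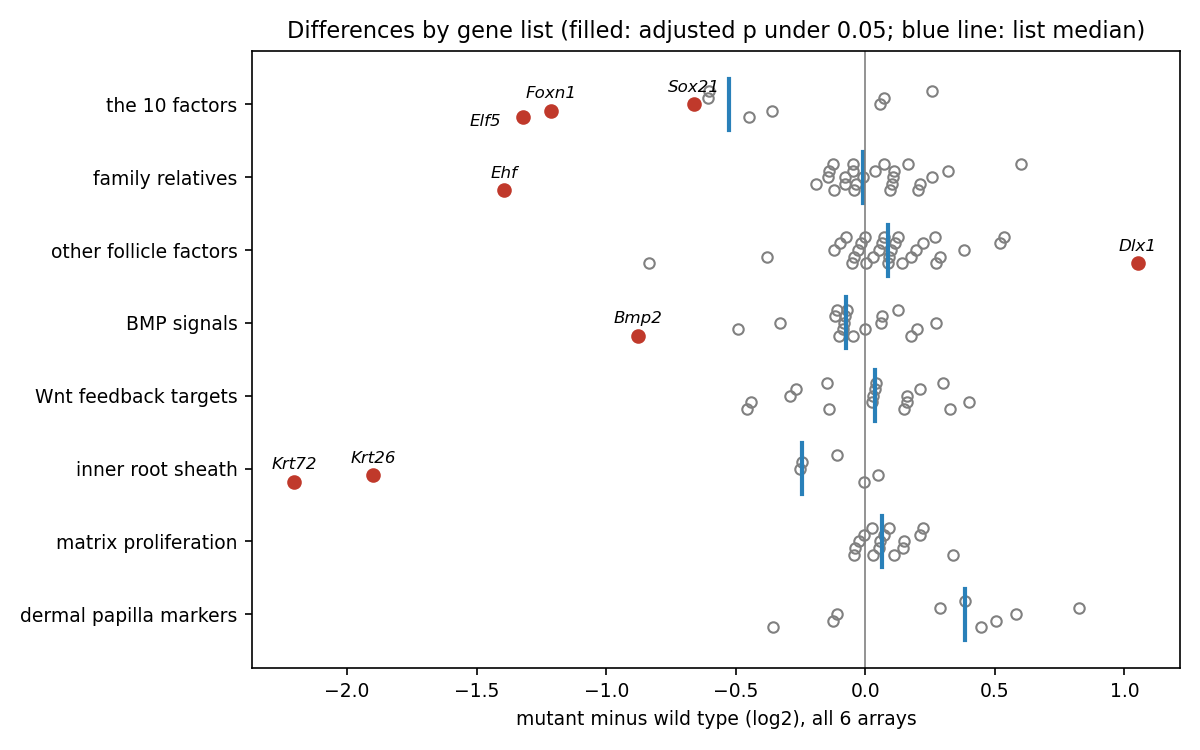
Mutant minus wild type differences (log2, horizontal axis, all 6 arrays) of each measured gene in 8 lists, with genes of adjusted p under 0.05 filled and named, and list medians as blue lines. The 10 factors have a median of -0.52, inner root sheath genes -0.25 and dermal papilla markers 0.38. The medians of family relatives, other follicle factors, BMP signals, Wnt feedback targets and cell cycle genes lie between -0.07 and 0.09.

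Markers of other cells in the skin moved with mutant replicate 3 as well. Of 8 pigment cell genes all 8 were highest in mutant replicate 3 among the mutant arrays, against 44.7% of all probe sets. Their mean level was 9.42, 9.35 and 9.997 in mutant replicates 1, 2 and 3, against 9.81, 10.01 and 9.92 in wild type skin. The smallest p was that of Mlana, a melanosome gene (-0.99, limma adjusted p = 0.0903). The 9 measured dermal papilla markers averaged 7.93, 7.92 and 7.63 in mutant replicates 1, 2 and 3, against 7.52, 7.56 and 7.59 in wild type skin. Their smallest p was that of Alpl, alkaline phosphatase (0.38, limma adjusted p = 0.0673). Limma called 0 of either list (2 lower and 0 higher, and 1 lower and 3 higher, at an unadjusted p under 0.05). Without mutant replicate 3, 5 pigment cell genes were called lower and 0 higher, and 1 dermal papilla marker lower and 6 higher. The shares of all probe sets in that fit were 6.23% lower and 7.95% higher.

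The 10 skeletal muscle genes averaged 11.59, 11.05 and 10.56 in mutant skin, against 10.33, 11.23 and 9.998 in wild type skin. Mutant replicate 3 was the lowest mutant array for 9 of them, a pattern whose share over all probe sets was not computed. Limma called 0 lower and 1 higher, with a median difference of 0.61 (0 lower and 4 higher at an unadjusted p under 0.05). The median ran from 0.44 to 0.94 when 1 array was left out, the highest being without wild type replicate 2. The gene called was Myh2, a fast myosin heavy chain, which read 8.82, 8.83 and 8.78 in mutant skin, against 7.78, 7.85 and 7.09 in wild type skin. Its difference was 1.23 (SE 0.19, limma adjusted p = 0.0195). The call held in 3 of the 6 fits with 1 array left out and was lost without wild type replicate 1 or either of mutant replicates 1 and 2 (highest adjusted p = 0.0868). In the fit without mutant replicate 3, 0 muscle genes were called lower and 4 higher, against 6.23% and 7.95% of all probe sets.

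T cells also use Gata3 and Lef1. Of the 9 measured T cell markers limma called 0 (0 lower and 1 higher at an unadjusted p under 0.05), and 1 lower and 1 higher without mutant replicate 3. The smallest p was that of Thy1, which other cells of skin carry too. It read 9.73, 9.71 and 9.60 in mutant skin, against 9.35, 9.36 and 9.32 in wild type skin (difference 0.34, limma adjusted p = 0.0598, and 0.38 with adjusted p = 0.00986 without mutant replicate 3). Cd3e, a T cell receptor chain named after its values were seen, read 6.52, 6.46 and 6.77 in mutant and 6.83, 6.72 and 6.74 in wild type skin, and was the gene called lower in the fit without mutant replicate 3 (-0.28, adjusted p = 0.0407). Fat and endothelial lists (6 and 7 genes) had 0 called by limma, with 1 and 0 lower and 0 and 0 higher at an unadjusted p under 0.05. In the fit without mutant replicate 3, 0 fat genes were called lower and 3 higher, and 0 endothelial genes either way. That fit called 6.23% of all probe sets lower and 7.95% higher. With all 6 arrays the smallest p of the fat and endothelial lists were those of Lep, leptin (-1.44, limma adjusted p = 0.139), and Tie1, an endothelial receptor (0.22, limma adjusted p = 0.439). The part of these cells in the values of the 10 factors was not tested.

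The genes most like Hoxc13, Foxn1 and Gata3 were found from profiles centred on the wild type mean, by the root mean square difference over the 6 arrays. This ranks profiles and is not a test. For Hoxc13 the nearest were Lsr, a tricellular junction gene (0.094), Dach1, a transcriptional cofactor (0.095), and Cnfn, cornifelin of the cornified envelope (0.11). Lsr read 9.21, 8.96 and 9.72 in mutant skin, against 9.86, 10.02 and 9.95 in wild type skin. Since they were picked for their likeness, their shared pattern is no further result. In all 3 genes mutant replicate 3 lay below every wild type array, while for Hoxc13 it lay inside the wild type range. For Dach1 the margin was small (6.963, against 6.975 in wild type replicate 1). For Foxn1 the nearest were Nxpe3 (0.058), 4930438A08Rik (0.082) and the phospholipase gene Pla2g4b (0.084), all called lower. They too were picked for their likeness to a factor called lower, so these calls are no further result. Nxpe3 read 6.55, 6.53 and 6.74 in mutant skin, against 7.94, 7.59 and 7.79 in wild type skin, a difference of -1.17 (SE 0.11, limma adjusted p = 0.00132). For Gata3 they were Maz, a zinc finger factor, Sult1c1 and the kinase gene Slk, within 0.024 of its profile, and 0 of the 3 was called. Gata3 spanned only 0.405 over the arrays and 12912 genes were eligible, so a near match says little. Sult1c1 read between 3.845 and 4.191, within the span of the sperm, rod cell and islet genes.

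**Figure D4:**
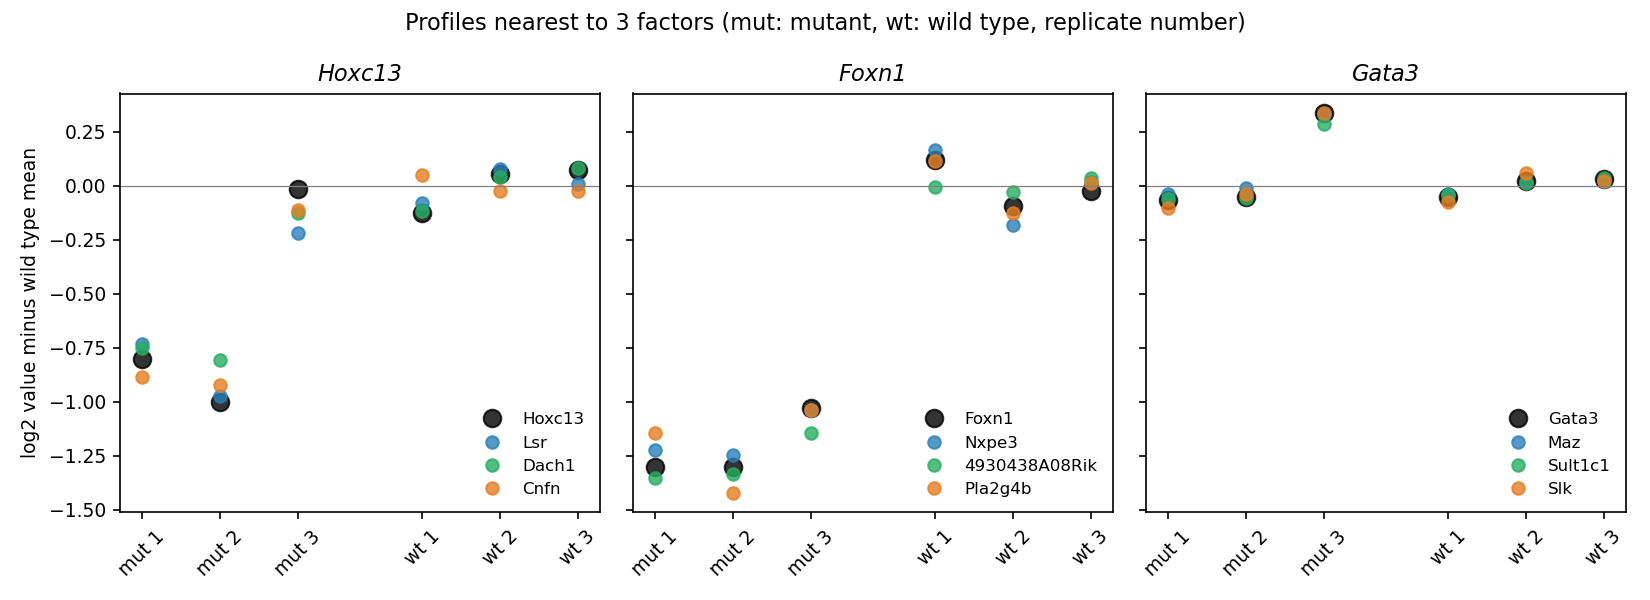
Log2 values minus the wild type mean (vertical axis) on mutant arrays 1 to 3 (left) and wild type arrays 1 to 3 (right) for Hoxc13, Foxn1 and Gata3 (black) and the 3 nearest genes of each (colours). The Hoxc13 set is low on mutant arrays 1 and 2 and less low on mutant array 3, where Hoxc13 itself lies nearest 0. The Foxn1 set is low on all 3 mutant arrays, and the Gata3 set departs from 0 on mutant array 3.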

How the data were processed

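Skin of 3 Hoxc13 mutant and 3 wild type samples was measured on Affymetrix 3′ arrays. The authors deposited log2 values made with RMA, per the submitters' processing notes, version not given in the sources used here. This method subtracts background, equalises the distributions of the arrays and combines the probes of a set, so changes in total RNA are not visible and differences near background are compressed. No detection calls were used. Of 16395 rows, 64 control probe sets were left out. The array annotation named 15644 of the 16331 probe sets by 1 symbol, none by several, and left 687 unlisted. Replicate numbers came from the titles. The design text calls the samples independent, without saying more of their source, so the p-values cover only the differences among these samples, which may be partly technical, and the number of arrays limits precision.

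Mutant minus wild type differences were fitted in R 4.3.3 with limma 3.58.1 (lmFit, eBayes, two-sided, no filter). Benjamini-Hochberg adjustment ran over all 16331 probe sets, with calls at 0.05. The script was tested on simulated data. Lists (15 beside the 10 factors) are described by counts and medians. The members and lists were chosen with earlier results of these data known. Named were the 10 members, up to 4 called genes of each list or the 1 of smallest p, and the 3 nearest profiles of Hoxc13, Foxn1 and Gata3 among genes with at least 0.5 times the range of that factor. Chromosomal neighbours were taken by position, and other genes are said to be named after their values were seen. Plots used matplotlib 3.10.9 under Python 3.11.15. Alternatives were a filter on low values, renormalisation, centring, other variance priors, array weights, a replicate block and leaving out each array.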

Additional observations from a re-analysis of the deposited data

How the results depend on the processing

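With 3 arrays a group, calls of the 10 factors depended on how the spread was estimated. Foxn1 kept its direction in all 13 alternatives (-1.30 to -1.15 when 1 array was left out) and passed in all but the fit without variance moderation (-1.21, adjusted p = 0.0598). That fit called 84 probe sets in all and 0 of the 10 factors, against 339 and 3 in limma, and Ehf, Dlx1, Bmp2, Krt72, Ivl, Myh2, Nxpe3 and Pla2g4b lost their calls in it (adjusted p 0.0748 to 0.256). Array weights gave 1880 probe sets and 7 factors lower, with Hoxc13 at -0.83 (adjusted p = 0.00878). Leaving out 1 array gave 151 to 2316 probe sets and 1 to 7 factors lower, with Hoxc13 between -0.90 and -0.41. The highest of these came without mutant replicate 3 and the 1 factor (Foxn1) without wild type replicate 3. No array left out made any of the 10 called higher (0). Gata3 and Cux1, not called in any fit, changed sign with array weights (-0.030 and -0.040) and without mutant replicate 3. Gata3 lay between -0.0605 and 0.142, and Cux1 between -0.0743 and 0.136, when 1 array was left out. The labels do not say whether same-numbered arrays share a litter or batch. Deviations of same-numbered arrays from their group means correlated at 0.036, -0.12 and -0.087, and no mutant array correlated best with its own number. With 3 arrays a group the deviations depend on one another, so these values cannot tell whether numbers mark a shared source. With the replicate block 197 probe sets were called, and Sox21 (-0.66, adjusted p = 0.0587) and, of the other named genes refitted, Dlx1 (1.05, adjusted p = 0.0618) were lost. When 1 array was left out, the list median lay between -0.052 and 0.048 for family relatives, 0.021 and 0.138 for other follicle factors, -0.127 and -0.018 for BMP signals, and 0.022 and 0.104 for Wnt targets. Of 390 list counts and medians over the alternatives, 329 stayed within 1.5 times the count or the wild type spread of the median and 61 moved.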
